A study of Mus musculus with 12 samples.

Results

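The genes described here are Cd28, a receptor that T cells use for costimulation, and a group of surface molecules through which antigen-presenting cells costimulate or restrain T cells, namely Cd80, Cd86, Icosl, Cd274, Pdcd1lg2, Cd40 and Cd83. They were taken by name from the count tables of J774A.1 cells, a mouse macrophage line, and the group was chosen by the lower level of Cd28 in ACAT1 KO cells, so the differences of Cd28 between genotypes are given as a description with no test. The other genes entered by name. Of the 8 genes named, 7 had counts in both tables, among 16699 genes listed in both. The level of Pdcd1lg2, which encodes PD-L2, was not analysed here.

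The study compared WT with ACAT1 KO J774A.1 lines, unstimulated or treated for 2 hours with 100 ng/ml LPS, the bacterial ligand of TLR4, and asked what loss of ACAT1, a mitochondrial enzyme that makes and cleaves acetoacetyl-CoA, does to macrophage gene expression. Each of the 4 groups (WT unstimulated, ACAT1 KO unstimulated, WT LPS and ACAT1 KO LPS) had 3 libraries, 12 in all. According to the study's methods, ACAT1 KO cells had received Cas9 with a guide to the Acat1 gene and WT cells the same Cas9 plasmid with no guide. Both were sorted and grown out from a few cells per well, so that a line carries its own history of outgrowth, and nothing in the labels says that libraries of a group came from separate cultures beyond their line number. P-values between genotypes measure the spread between the libraries of a group. That spread holds differences between lines and any technical differences between libraries, which cannot be told apart. Those of the LPS response and the interaction do not use a pairing of libraries by line, unless a line block is named.

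Costimulation is the second signal that a T cell needs besides its antigen receptor. CD28 on the T cell is bound by CD80 and CD86 on the presenting cell, ICOS by ICOS ligand, and PD-1, an inhibitory receptor of the same family, by PD-L1 and PD-L2. CD40 belongs to the TNF receptor family and is engaged on macrophages, dendritic cells and B cells by CD40 ligand of T cells, while CD83 is a surface protein of activated presenting cells that keeps MHC class II and CD86 on the surface. Microbial ligands such as LPS raise several of these molecules in macrophages, and CD28 itself is best known from T cells.

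Libraries held 56948593 to 167280149 counts. Levels are given as CPM (counts scaled to a common library total) with TMM scaling over all 12 libraries, and differences as log2 fold changes. Acat1 was 80.8 to 108 CPM in the WT and 25.5 to 28.9 CPM in the ACAT1 KO libraries without stimulation, and 65.0 to 95.4 against 18.5 to 19.9 CPM after LPS, so the targeted gene was lower in all ACAT1 KO libraries of a state than in any WT library. All 10 macrophage markers of a fixed list had counts, with a summed level of 7882 to 12968 CPM of raw library totals, without TMM scaling, the scale used for all marker sums. Most of this sum came from Lyz2. Between genotypes edgeR called 0 of the 10 higher and 2 lower without stimulation, beside 0.742% and 1.17% of all genes. After LPS it called 3 higher and 1 lower, beside 5.93% and 9.12%. Of 13 T cell markers, 3 had counts in unstimulated cells and 4 after LPS, with a summed level of 10.4 to 20.6 CPM of raw totals, most of it from Cd5, and the defining genes Cd3d, Cd3e and Cd3g were not among the genes listed. A set of 3 unstimulated libraries, WT replicates 1 and 2 and ACAT1 KO replicate 2, stood apart with 0.0175% to 0.0265% of their counts on noncoding genes that lie opposite other genes, against 0.00193% to 0.00446% in the other 9. The coefficient of variation between libraries of a group, fitted over all genes by edgeR, was 0.285 without stimulation and 0.108 after LPS. The part of these 3 libraries in the former was not tested. Unstimulated and LPS libraries stand in separate tables, so the treatment and any difference in the handling of the tables cannot be told apart.

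For 4 of the 8 genes a RefSeq promoter window of GRCm38.p6 was at hand. Icosl and Cd80 are shown because they had counts and a long enough stretch of window before any annotated exon. Cd274 was left out because annotated exons begin early in its window, and Pdcd1lg2 because its level was not analysed. Each window begins 250 bases before the RefSeq start of the gene and is written 5′ to 3′ on the plus strand. Capitals mark matches to GGGANNNNCC or TGANTCA, searched on both strands together with the interferon-response letters GAAANNGAAA. The first, called the NF-kB letters here, is a loose form of an NF-kB site with its middle bases left free. The second holds the letters of an AP-1 site. The Icosl window is cut at the end of its match, 5 bases inside an annotated first exon (chr10:78069118-78069306).
Icosl: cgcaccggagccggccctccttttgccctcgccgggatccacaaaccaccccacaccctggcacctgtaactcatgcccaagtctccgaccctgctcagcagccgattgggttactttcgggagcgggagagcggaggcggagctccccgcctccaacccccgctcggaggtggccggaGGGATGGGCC
The Cd80 window runs over all 250 bases (chr16:38458683-38458932). It lies inside the span of Cd80 in the GENCODE annotation, which starts at 38455561, and overlaps no annotated exon.
Cd80: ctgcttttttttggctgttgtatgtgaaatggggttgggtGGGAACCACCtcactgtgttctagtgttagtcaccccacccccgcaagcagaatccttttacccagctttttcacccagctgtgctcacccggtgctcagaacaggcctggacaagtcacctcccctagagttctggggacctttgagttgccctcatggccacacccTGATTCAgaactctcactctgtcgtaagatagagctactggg
The Icosl match lies 71 to 62 bases before the RefSeq start. The Cd80 matches lie 210 to 201 bases (NF-kB letters) and 42 to 36 bases (AP-1 letters) before the RefSeq start of Cd80. The 250 bases before Pdcd1lg2 held the NF-kB letters 244 to 235 bases before the start, and those before Cd274 held none of the 3 patterns. Of 32851 mouse promoter windows of this length, 17.6% held the NF-kB letters, 6.75% the AP-1 letters and 2.98% the interferon-response letters. A match is a description of letters and not evidence of a site in use.

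Per kilobase of exon, Cd28 had the lowest level of the 7 genes in LPS-treated ACAT1 KO cells and ranked below Cd86 alone in unstimulated WT cells. The gene (ENSMUSG00000026012) spans 60716800 to 60773359 of chromosome 1, plus strand, in GRCm38 coordinates, which are used throughout. In unstimulated WT cells it was 81.5, 60.7 and 54.6 CPM in replicates 1, 2 and 3. In unstimulated ACAT1 KO cells it was 10.98, 10.77 and 12.41 CPM. The WT libraries were all above the ACAT1 KO libraries, with a gap wider than the spread within either group. After LPS it was 37.7, 20.8 and 19.8 CPM in WT and 2.47, 2.37 and 3.03 CPM in ACAT1 KO cells. The groups again did not overlap, and WT replicate 1 was the highest library in both states. These values chose the gene and carry no test.

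The log2 fold change of Cd28 (ACAT1 KO over WT, fitted within each state) was -2.52 (standard error 0.159) without stimulation, a level 5.72-fold lower, and -3.29 (standard error 0.265) after LPS, 9.78-fold lower. Leaving out single libraries moved the former from -2.63 to -2.34 and the latter from -3.45 to -2.93. Without the 3 libraries that stood apart, which left 1 WT library, the unstimulated difference was -2.23, and within those 3, of which 1 was ACAT1 KO, it was -2.72. In bulk RNA, fewer cells expressing a gene and less RNA per cell cannot be told apart.

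**Figure D1:**
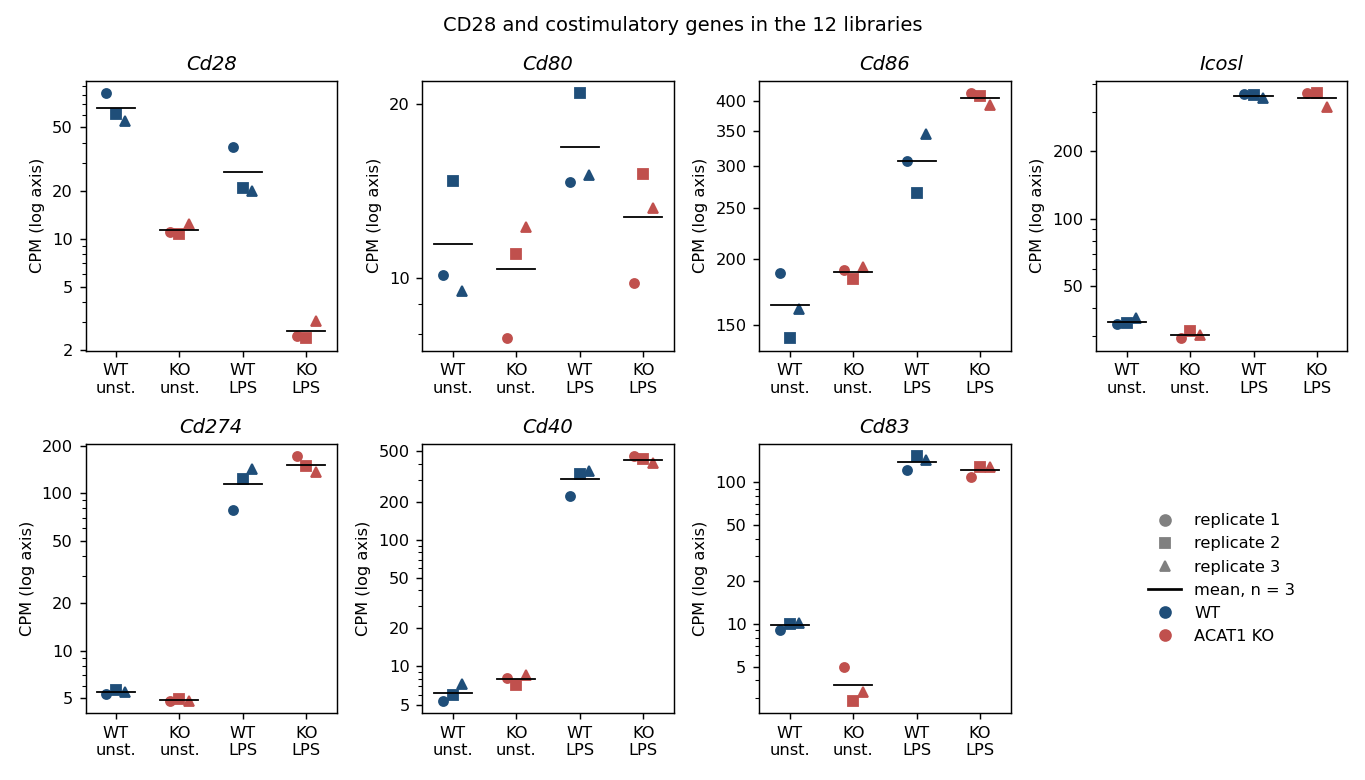
Level of each of the 7 genes with counts in each of the 12 libraries, in CPM on a log axis, by genotype and state. Symbols mark the replicate number and the line the mean of 3 libraries. Cd28 lies at 2.37 to 3.03 CPM in ACAT1 KO cells after LPS and at 54.6 to 81.5 CPM in unstimulated WT cells, while Cd40, Cd274, Cd83 and Icosl stand much higher after LPS in both genotypes.

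LPS lowered Cd28. The mean LPS response over both genotypes, which is independent of the genotype difference in this balanced design, was -1.72 (standard error 0.167, adjusted p = 1.58e-06, edgeR, with the Benjamini-Hochberg method over all genes), a level 3.30-fold lower. Against its own unstimulated library, Cd28 after LPS was at 0.462, 0.343 and 0.363 of that level in WT replicates 1, 2 and 3, and at 0.225, 0.220 and 0.244 of it in ACAT1 KO. All 6 lines fell, and each ACAT1 KO line stood at a lower fraction than each WT line. The fitted responses were -1.33 (standard error 0.227) in WT and -2.12 (standard error 0.245) in ACAT1 KO cells, whose difference of -0.79 (standard error 0.327) shares the genotype values that chose the gene and is given without a test. It was -0.43 without WT LPS replicate 1. The other 6 genes with counts all moved the other way with LPS.

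The 6 genes besides Cd28 were tested between genotypes, and their calls are given beside the share over all genes. Without stimulation 1 of 6 was called lower and 0 higher (2 had an unadjusted p under 0.05 in edgeR), where 1.17% of the 16440 genes tested were called lower and 0.742% higher. The groups did not overlap for 3 of the 6 (Icosl, Cd274 and Cd83), against 25.8% of all genes. After LPS 1 of 6 was called higher and 0 lower (2 had an unadjusted p under 0.05), where 5.93% of 16483 genes were called higher and 9.12% lower, and the groups did not overlap for 2 of 6 (Cd86 and Cd40), against 37.6% of all genes. The median log2 fold change of the 6 was -0.15 without stimulation and 0.21 after LPS, beside 0.0035 and -0.0041 over all genes. For the interaction 0 of 6 were called by edgeR (2 had an unadjusted p under 0.05, Cd274 and Cd83, and limma-voom called 0), where 0.0484% of 16535 genes were called higher and 0.139% lower. DESeq2 called 1 of 6 for the interaction, Cd83 (adjusted p = 7.88e-05).

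LPS moved every gene of the group. Of the 7 genes tested, 6 rose and 1, Cd28, fell, where 34% of all genes were called higher and 35.5% lower. Upper-quartile normalization split the calls over all genes into 4325 higher and 7657 lower in place of 5620 and 5871. The median response of the 7 was 3.43 beside -0.016 over all genes. In decreasing order the responses were 5.68 for Cd40, 4.67 for Cd274, 4.43 for Cd83, 3.43 for Icosl, 1.00 for Cd86, 0.43 for Cd80 and -1.72 for Cd28. Cd274 and Cd83 were neighbours in this order whose estimates lay within 2 standard errors of each other.

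Among Cd80, Cd86, Icosl and Cd274, the ligands of the group with counts, Cd86 had the highest level per kilobase of exon in unstimulated cells and was the one called for a genotype difference after LPS. Cd86 (ENSMUSG00000022901, chromosome 16, 36603869 to 36666081, minus strand), the B7-2 ligand of CD28, was 188, 142 and 161 CPM in unstimulated WT and 191, 183 and 193 CPM in unstimulated ACAT1 KO replicates 1, 2 and 3. WT replicate 1 lay among the ACAT1 KO libraries, and the log2 fold change of 0.22 (standard error 0.105) did not pass the test (adjusted p = 0.309, edgeR). With LPS the libraries held 308, 267 and 346 CPM in WT and 413, 408 and 392 CPM in ACAT1 KO cells. Every ACAT1 KO library was then above every WT library. The log2 fold change was 0.42 (standard error 0.0914, adjusted p = 0.0229, edgeR), a level 1.34-fold higher. The call was lost when any 1 of the 3 ACAT1 KO LPS libraries was left out (adjusted p from 0.0585 to 0.0755), while the estimate stayed between 0.33 and 0.52. With 3 against 3 libraries an exact permutation test cannot go below p = 0.1.

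LPS raised Cd86 in every line of both genotypes. The mean response was 1.00 (standard error 0.0749, adjusted p = 1.51e-07, edgeR), 2.00-fold. Single lines ranged from 1.64- to 2.14-fold in WT and from 2.03- to 2.22-fold in ACAT1 KO cells, and these ranges overlapped. The interaction, the LPS response in ACAT1 KO minus that in WT, was 0.19 (standard error 0.148, adjusted p = 0.825, edgeR).

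Cd80 (ENSMUSG00000075122, chromosome 16, 38455561 to 38496335, plus strand), the B7-1 ligand, was low, and its genotypes overlapped in both states. It was 10.1, 14.7 and 9.51 CPM in unstimulated WT and 7.86, 11.01 and 12.27 CPM in unstimulated ACAT1 KO replicates 1, 2 and 3. After LPS it was 14.7, 20.9 and 15.1 CPM in WT and 9.81, 15.2 and 13.2 CPM in ACAT1 KO cells. Replicate 2 was the highest WT library in both states. The genotype log2 fold changes were -0.13 (standard error 0.224, adjusted p = 0.814, edgeR), which was 0.076 without the 3 libraries that stood apart, and -0.38 (standard error 0.182, adjusted p = 0.196, edgeR), the latter passing only with the replicate number as a block (adjusted p = 0.0482).

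Cd80 rose slightly with LPS. The mean response was 0.43 (standard error 0.159, adjusted p = 0.0295, edgeR), 1.35-fold, and every line was higher after LPS, by 1.42- to 1.58-fold in WT and 1.08- to 1.38-fold in ACAT1 KO. These ranges, which rest on pairing libraries by replicate number, did not overlap. How often this holds over all genes was not counted. The interaction of -0.27 (standard error 0.317) did not pass the test (adjusted p = 0.914, edgeR). The LPS call of Cd80 was the weakest of the 7, since it was lost in 6 of the 12 fits that left out a library and under upper-quartile normalization (0.25, adjusted p = 0.185). That scaling shifted the median response of all genes from -0.016 to -0.19. Per kilobase of exon, Cd86 stood above Cd80 in every library. The ratio Cd86 over Cd80 on that scale was 15.2 ± 4.83 (SD, n = 3) in unstimulated WT, 19.1 ± 4.75 in unstimulated ACAT1 KO, 19.1 ± 5.43 in WT LPS and 33.3 ± 8.17 in ACAT1 KO LPS libraries, with 3 libraries each. The ACAT1 KO LPS libraries spanned 27.2 to 42.6 and the WT LPS libraries 13.0 to 23.2, which did not overlap, and the ratio was not tested.

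Icosl (ENSMUSG00000000732, chromosome 10, 78069302 to 78083913, plus strand), the ligand of ICOS, had the smallest genotype difference of the 7 after LPS. It was 34.0, 34.4 and 36.0 CPM in unstimulated WT and 29.3, 31.6 and 30.5 CPM in unstimulated ACAT1 KO replicates 1, 2 and 3. The groups did not overlap, but the log2 fold change of -0.18 (standard error 0.0608) did not pass the test over all genes (adjusted p = 0.170, edgeR). LPS-treated libraries held 361, 357 and 345 CPM in WT and 363, 363 and 317 CPM in ACAT1 KO cells, which overlapped, at -0.0070 on the log2 scale (standard error 0.0645, adjusted p = 0.956, edgeR) that was 0.022 under upper-quartile normalization. LPS raised it by 3.43 (standard error 0.0488, adjusted p = 3.80e-13, edgeR), 10.8-fold, and by 9.58- to 12.4-fold in the 6 lines. The NF-kB letters printed above lie in its promoter window and also in the Cd80 window, which is inside the annotated gene. The level of Cd80 rose 1.35-fold, and that of Cd274, whose window held none of the 3 patterns, 25.5-fold. A link between these letters and the LPS responses was not tested.

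Cd274 (ENSMUSG00000016496, chromosome 19, 29367455 to 29388095, plus strand) encodes PD-L1, the ligand of the inhibitory receptor PD-1. It was 5.29, 5.68 and 5.52 CPM in unstimulated WT and 4.81, 4.97 and 4.80 CPM in unstimulated ACAT1 KO replicates 1, 2 and 3. All ACAT1 KO libraries were slightly lower, and the difference of -0.17 (standard error 0.114) did not pass the test (adjusted p = 0.476, edgeR). After LPS it was 78.3, 123 and 143 CPM in WT and 172, 148 and 135 CPM in ACAT1 KO cells. WT replicate 3 overlapped the ACAT1 KO range and WT replicate 1 lay far below. The difference of 0.42 (standard error 0.197, adjusted p = 0.186, edgeR) was 0.21 without WT LPS replicate 1, and it was not called in any fit tried.

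Cd274 rose 25.5-fold with LPS (log2 fold change 4.67, standard error 0.140, adjusted p = 6.64e-11, edgeR). Single lines rose 14.8- to 25.8-fold in WT and 28.2- to 35.7-fold in ACAT1 KO, ranges that did not overlap. The share of all genes separate in this way was not counted. The interaction of 0.58 (standard error 0.248) did not pass the test over all genes (adjusted p = 0.510, edgeR). Of the 3622 exon bases of Cd274, 511 (14.1%) are shared with AC119228.1, a gene on the other strand, and the strand setting of the counting is not given in the sources used here, so reads from these bases cannot be told apart. The other 6 genes with counts share no exon bases with a gene on the other strand.

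Cd40 (ENSMUSG00000017652, chromosome 2, 165055627 to 165072948, plus strand) had the largest LPS response of the 7. It was 5.32, 5.95 and 7.31 CPM in unstimulated WT and 8.14, 7.09 and 8.55 CPM in unstimulated ACAT1 KO replicates 1, 2 and 3. The highest WT library lay above the lowest ACAT1 KO library, and the log2 fold change was 0.36 (standard error 0.154, adjusted p = 0.256, edgeR). With LPS its level was 222, 331 and 353 CPM in WT and 461, 433 and 403 CPM in ACAT1 KO cells. Every ACAT1 KO library was above every WT library, WT replicate 1 being lowest. The log2 fold change of 0.54 (standard error 0.155), 1.45-fold, missed the threshold (adjusted p = 0.0531, edgeR), and adjusted p over the other settings ran from 0.00389 with DESeq2 to 0.144.

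Without WT LPS replicate 1 the difference of Cd40 was smaller, 0.36, with adjusted p = 0.0190 in edgeR. Cd40 lies on distal chromosome 2, where the log2 fold changes between genotypes were shifted upward. From 90 Mb onward, the median was 0.29 over 708 genes without stimulation and 0.28 over 711 genes after LPS, with 260 of the latter called higher and 8 lower. The median over all genes was 0.0035 and -0.0041, and the part of this regional shift in the Cd40 values was not tested. With LPS, Cd40 rose 51.3-fold (5.68, standard error 0.137, adjusted p = 1.29e-11, edgeR), by 41.8- to 55.6-fold in WT and 47.1- to 61.0-fold in ACAT1 KO lines, and the interaction was 0.17 (standard error 0.230, adjusted p = 0.933, edgeR), or -0.010 without WT LPS replicate 1.

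Cd83 (ENSMUSG00000015396, chromosome 13, 43784775 to 43803132, plus strand) was the 1 gene of the 6 tested that was called lower in unstimulated ACAT1 KO cells. It was 9.04, 10.0 and 10.2 CPM in WT and 4.96, 2.85 and 3.30 CPM in ACAT1 KO replicates 1, 2 and 3. The groups were well apart, with the ACAT1 KO lines spread more widely than the WT lines. The log2 fold change was -1.39 (standard error 0.215, adjusted p = 0.0400, edgeR), a level 2.61-fold lower. The call was kept in only 1 of the 6 fits that left out a library, namely without ACAT1 KO replicate 1, with estimates from -1.67 to -1.23 and adjusted p from 0.0439 to 0.157. Without the 3 unstimulated libraries that stood apart the difference was -1.30 (adjusted p = 0.103, edgeR), with 1 WT library left and assumed to vary like the ACAT1 KO libraries. Within those 3, with a single ACAT1 KO library, it was -1.74.

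After LPS, Cd83 was 121, 153 and 144 CPM in WT and 109, 128 and 127 CPM in ACAT1 KO cells, which overlapped, at -0.18 on the log2 scale (standard error 0.0985, adjusted p = 0.255, edgeR). LPS raised it 21.6-fold on average (4.43, standard error 0.129, adjusted p = 5.30e-11, edgeR). Each WT line rose 13.4- to 15.2-fold and each ACAT1 KO line 22.0- to 45.0-fold, and these ranges did not overlap, which was not counted over all genes. The interaction was 1.18 (standard error 0.230) and missed the threshold (adjusted p = 0.0737, edgeR). With the line as a block, which uses the pairing of each unstimulated library with the LPS library of the same number, it was 1.20 (adjusted p = 0.0430), in a fit that called 0.835% of 16535 genes higher, and without ACAT1 KO unstimulated replicate 1 it was 1.46 (adjusted p = 0.00835, edgeR). Cd83 is also used as a marker of mature dendritic cells. Of 8 dendritic cell markers, 4 had counts in unstimulated cells, with a summed level of 5.60 to 15.8 CPM of raw totals in WT and 17.5 to 26.7 in ACAT1 KO libraries, while Flt3, Siglech and Clec9a were not among the genes listed. Cd209a made most of the difference in the sum, with means of 4.07 CPM in WT and 15.6 CPM in ACAT1 KO cells (adjusted p = 0.218, edgeR), and 0 of the 4 were called (1 had an unadjusted p under 0.05, and DESeq2 and limma-voom called 0). The part of these genes in the Cd83 values was not tested.

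**Figure D2:**
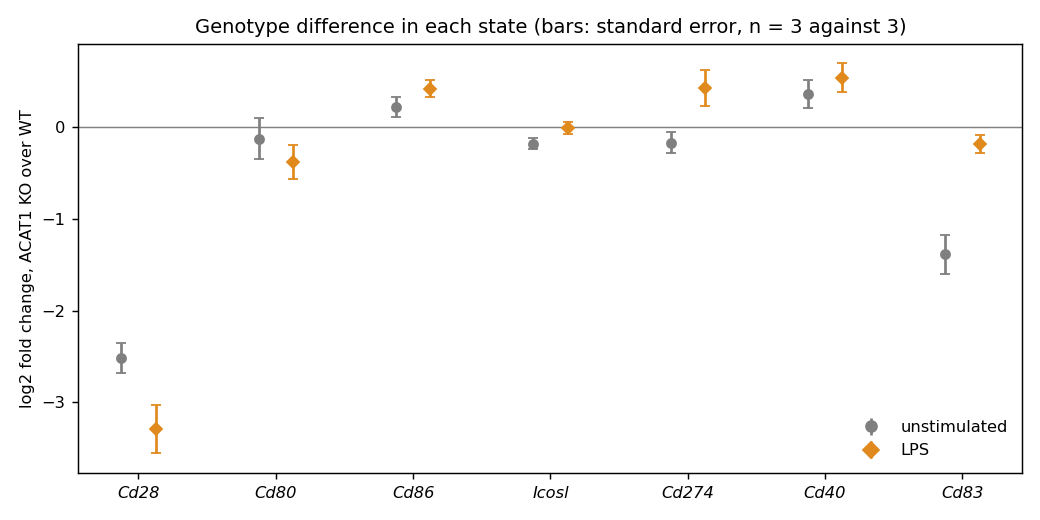
Log2 fold change of ACAT1 KO over WT for each gene, without stimulation (circles) and after LPS (diamonds), with bars of 1 standard error from fits of 3 against 3 libraries. Cd28, which was chosen for this difference, lies at -2.52 and -3.29, Cd83 at -1.39 and -0.18, and the other 5 genes between -0.38 and 0.54.

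**Figure D3:**
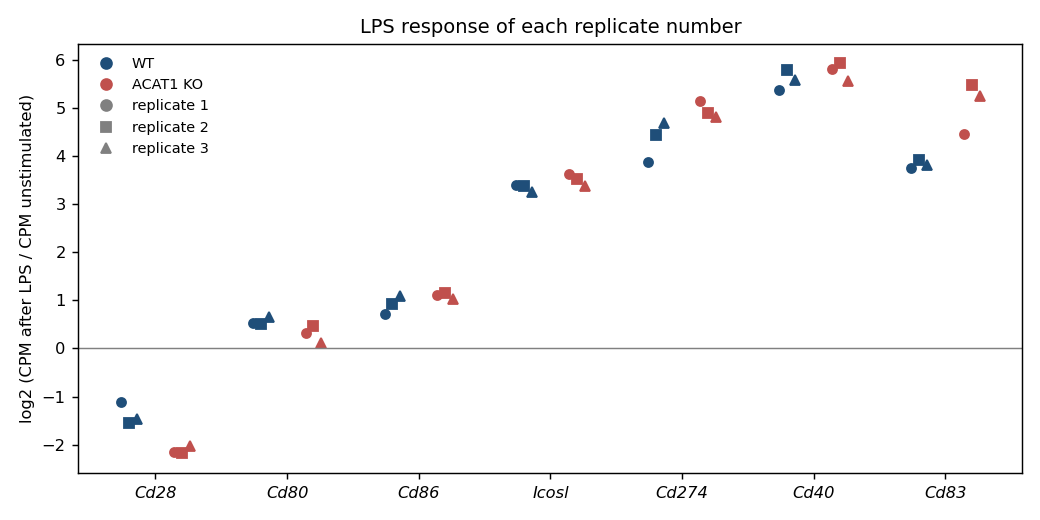
Log2 ratio of the LPS library to the unstimulated library of the same number for each gene, with WT lines in blue and ACAT1 KO lines in red and symbols for the replicate number. All 6 lines lie above 0 for every gene but Cd28, whose ratios correspond to 0.220 to 0.462 of the unstimulated level. The genotypes are separate for Cd28, which was chosen by its genotype values. They are also separate for Cd80, Cd274 and Cd83, whose interactions edgeR did not call. How often genes are separate in this way over all genes was not counted.

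The order of the levels changed with LPS and with genotype, where the change in rank of Cd28 follows from the values that chose the group. Per kilobase of exon, in unstimulated WT cells Cd86 was highest at 44.7 ± 6.38 CPM per kb (SD, n = 3), followed by Cd28 at 10.7 ± 2.31, Icosl at 7.53 ± 0.231, Cd83 at 3.79 ± 0.236, Cd80 at 3.09 ± 0.766, Cd40 at 1.82 ± 0.299 and Cd274 at 1.52 ± 0.0536 CPM per kb. The ranges of Cd83 and Cd80, and of Cd40 and Cd274, overlapped. In unstimulated ACAT1 KO cells Cd28, at 1.86 ± 0.145 CPM per kb (SD, n = 3), ranked 5 of 7, its range overlapping that of Cd83. After LPS Cd40, Cd86 and Icosl led in both genotypes, overlapping in sequence in WT cells (88.6, 83.8 and 76.7 CPM per kb) and separate in ACAT1 KO cells (126.9, 110.5 and 75.3 CPM per kb). Cd28 was last in both, at 4.26 ± 1.64 CPM per kb (SD, n = 3) in WT, overlapping Cd80, and at 0.428 ± 0.0580 CPM per kb in ACAT1 KO cells.

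Set against its ligand, the level of Cd28 differed still more across groups. The ratio of Cd86 to Cd28 per kilobase was 3.86 to 4.94 in unstimulated WT libraries and 26.0 to 29.1 in unstimulated ACAT1 KO libraries. After LPS this ratio was 13.6 to 29.2 in WT and 217 to 288 in ACAT1 KO libraries. No 2 groups overlapped except unstimulated ACAT1 KO and WT LPS. The ratio holds the Cd28 values that chose the group, so its difference between genotypes carries no test.

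**Figure D4:**
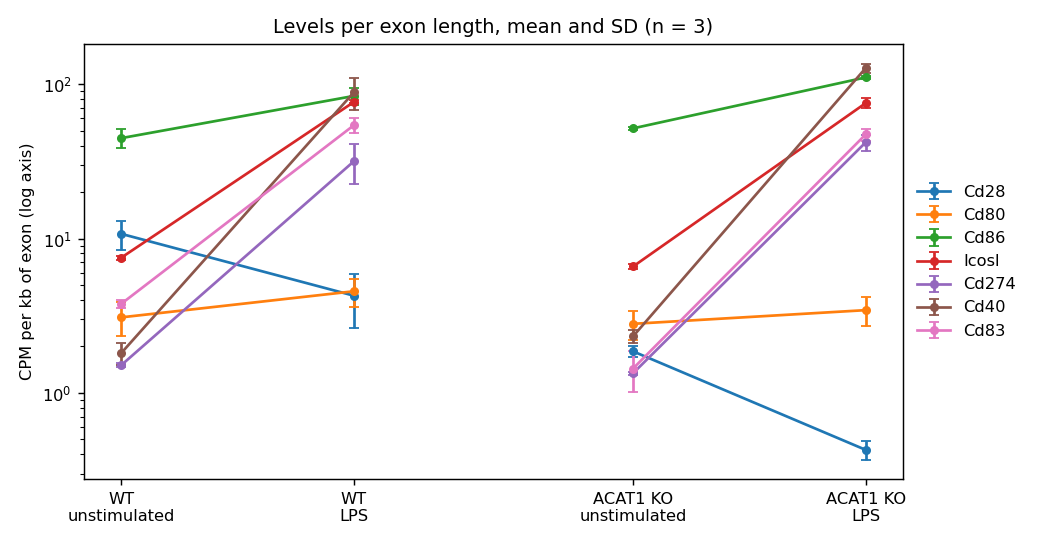
Level of each gene per kilobase of exon on a log axis, without stimulation and after LPS, in WT (left pair) and ACAT1 KO cells (right pair), as the mean and SD of 3 libraries. Cd28 goes from 10.7 to 4.26 CPM per kb in WT and from 1.86 to 0.428 CPM per kb in ACAT1 KO cells, while Cd40 moves from rank 6 or 4 to rank 1.

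The neighbourhood of Cd28 was examined because Icos and Ctla4, its relatives, lie beside it. Within 500 kb there were 10 other genes with counts. Ctla4 was listed in unstimulated cells alone and was not tested. Raph1, an actin regulator that binds Ena/VASP proteins and lies 149.7 kb away, was lower in ACAT1 KO cells in both states, by log2 fold changes of -1.14 (standard error 0.123, adjusted p = 0.0187, edgeR) and -1.04 (standard error 0.108, adjusted p = 0.00267, edgeR). Abi2, an adaptor of the WAVE complex, was lower in unstimulated cells (-0.42, adjusted p = 0.0302, edgeR), and Nbeal1 (-0.52, adjusted p = 0.0209) and Cyp20a1 (-0.35, adjusted p = 0.0482) after LPS. Icos, the receptor for ICOS ligand, had log2 fold changes of -0.48 (adjusted p = 0.306) and -0.83 (adjusted p = 0.0579), which did not pass. Between Raph1 and Cd28 the pseudogene Eif4a-ps4, whose counts are uncertain because a pseudogene can share reads with its parent gene, had 0.069 (adjusted p = 0.659) and 0.26 (adjusted p = 0.0300). Within 5 Mb of Cd28 the median log2 fold change was -0.21 over 79 genes without stimulation and -0.16 over 76 genes after LPS. Without stimulation 2 of the 79 were called lower and 0 higher, beside 1.17% and 0.742% of all genes. After LPS 11 of the 76 were called lower and 3 higher, beside 9.12% and 5.93% of all genes.

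**Figure D5:**
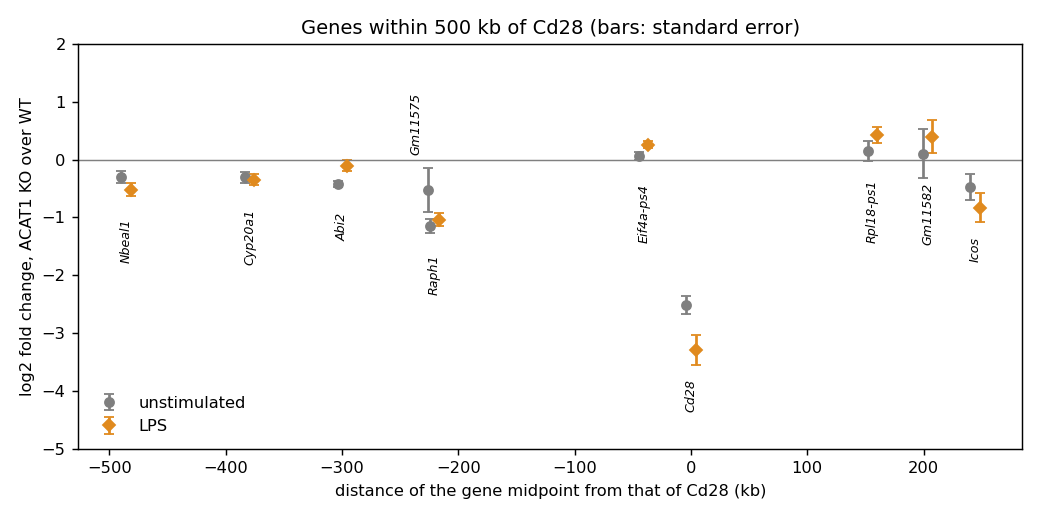
Log2 fold change of ACAT1 KO over WT for the genes within 500 kb of Cd28 against the distance between gene midpoints in kb, without stimulation (circles) and after LPS (diamonds), with bars of 1 standard error. Cd28 lies at -2.52 and -3.29, Raph1 at -1.14 and -1.04, and the other genes plotted between -0.83 and 0.43.

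By the pattern over the 12 libraries, the genes most like Cd28 were Adssl1 (Pearson r = 0.987 of log2 CPM), Zfp277 (0.982), Eepd1 (0.978), 2700097O09Rik (0.973) and Pigh (0.972), among 11960 genes with a mean of at least 1 CPM. These are descriptions over 12 libraries in 4 groups that share genotype and treatment, and carry no test. Cd28 was chosen by its lower level in ACAT1 KO cells, so the genes most like it were bound to be lower as well. All 5 were lower in ACAT1 KO than in WT cells in each state, by less than Cd28. Adssl1, a muscle-type adenylosuccinate synthase, went from 29.9 to 21.2 CPM without stimulation and from 25.1 to 16.1 CPM after LPS (means, n = 3, WT then ACAT1 KO), and Eepd1, an endonuclease-like protein that LXR induces in macrophages, from 42.6 to 24.1 and from 30.6 to 11.05 CPM. Of the 5, 4 lie on chromosome 12, where the median log2 fold change between genotypes was -0.26 over 585 genes and -0.28 over 584 genes, and Eepd1 lies on chromosome 9. The other members correlated with Cd28 at r from -0.72 (Cd86) to 0.016 (Cd80).

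Of 9 further genes of the CD28 family and its ligands, 4 were tested without stimulation and 5 otherwise. Cd276, the ligand B7-H3, was lower in unstimulated ACAT1 KO cells (log2 fold change -1.50, standard error 0.221, adjusted p = 0.0390, edgeR). Its mean was 1.21 CPM in WT and 0.422 CPM in ACAT1 KO cells (n = 3 each). It was 1 of 4 called, beside 1.17% of all genes called lower and 0.742% higher. After LPS edgeR called 0 of 5, beside 9.12% of all genes called lower and 5.93% higher. Of these 5, 3 had an unadjusted p under 0.05, and DESeq2 called 2 and limma-voom 1. With LPS 2 of 5 rose and 1 fell, where 34% of all genes were called higher and 35.5% lower. Pdcd1, which encodes PD-1, rose from a mean of 0.0764 CPM in unstimulated WT cells to 4.55 CPM in WT cells after LPS (6.21, adjusted p = 1.01e-07), Cd276 rose (0.71, adjusted p = 8.69e-04), and Vsir, the inhibitory receptor and ligand VISTA, fell (-1.43, adjusted p = 1.08e-09, all edgeR).

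Signalling genes that act behind CD28 and CD40 were measured as well. Of 22 genes of CD28 signalling tested, 0 were called between genotypes without stimulation by edgeR (4 had an unadjusted p under 0.05, DESeq2 called 1 and limma-voom 0), and in LPS-treated ACAT1 KO cells 1 was higher and 3 lower, where 5.93% of all genes were called higher and 9.12% lower. Lcp2, the adaptor SLP-76, was higher (0.40, adjusted p = 0.0204), and genes that were lower included Akt1, a kinase downstream of PI3K (-0.26, adjusted p = 0.0204), and Pdpk1, which phosphorylates AKT (-0.23, adjusted p = 0.0451, all edgeR). Akt1 lies on chromosome 12. The list's median was -0.066, beside -0.0041 over all genes. With LPS 14 of the 22 rose and 5 fell, led by Malt1, a protease that acts toward NF-kB (4.08, adjusted p = 1.34e-12), and Pip5k1a, a lipid kinase (1.86, adjusted p = 4.25e-11), with a list median of 0.31, where 34% of all genes were called higher and 35.5% lower.

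Of 13 genes of CD40 signalling besides Cd40, 0 were called between genotypes without stimulation by edgeR (6 had an unadjusted p under 0.05, DESeq2 called 4 and limma-voom 0), and after LPS 5 were higher and 2 lower in ACAT1 KO cells, with a list median of 0.15, beside 5.93% and 9.12% of all genes and an all-gene median of -0.0041. Traf3, the TRAF that restrains noncanonical NF-kB signalling, was lower (-0.62, standard error 0.0747, adjusted p = 0.00373), as was Traf5 (-0.66, adjusted p = 0.0130). Traf1 (0.40, adjusted p = 0.0201) and Nfkb2, which encodes the p100 precursor of the noncanonical pathway (0.27, adjusted p = 0.0306), were higher. Traf3 lies on chromosome 12, with the median given above, and its part in the value was not tested. With LPS 11 of the 13 rose and 2 fell, with a median of 1.52, beside 34% and 35.5% of all genes and an all-gene median of -0.016. Traf1 rose by 5.93, Birc3, a ubiquitin ligase of the receptor complex, by 2.44 and Nfkb2 by 2.11 on the log2 scale (adjusted p at most 9.52e-11, edgeR). For the interaction of genotype and LPS edgeR, DESeq2 and limma-voom called 0 genes of either signalling list (3 of 22 and 4 of 13 had an unadjusted p under 0.05 in edgeR).

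Of 9 TNF-family ligands and receptors of costimulation tested after LPS, 2 were higher in ACAT1 KO cells and 0 lower, with a median of 0.56, beside 5.93% and 9.12% of all genes and an all-gene median of -0.0041. Tnfsf9, the ligand of 4-1BB, had a mean of 170 CPM in WT and 282 CPM in ACAT1 KO cells after LPS (log2 fold change 0.75, standard error 0.0818, adjusted p = 0.00284, edgeR), and Tnfsf4, the OX40 ligand, which was listed after LPS alone, stood at 1.17 (standard error 0.268, adjusted p = 0.0257, edgeR). Of 7 tested without stimulation 0 were called by edgeR (3 had an unadjusted p under 0.05, DESeq2 called 1 and limma-voom 0). With LPS 3 of 7 rose and 1 fell, beside 34% and 35.5% of all genes. Tnfsf15, the ligand TL1A, rose from means of 2.18 and 2.41 CPM to 81.9 and 115 CPM in WT and ACAT1 KO cells (5.39, adjusted p = 1.55e-11, edgeR).

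MHC class II presentation gives the T cell its first signal. Of 16 genes listed for it 10 were tested, none of them encoding a chain of the class II molecule that presents antigen to T cells. The list holds genes that act for presentation and others, such as Marchf1, that act against it, so its counts give no direction for presentation. Of the 10, 7 fell with LPS and 1, Cd74 (the invariant chain), rose by 0.29 (adjusted p = 0.00123, edgeR), beside 35.5% of all genes called lower and 34% higher. Marchf1, the ubiquitin ligase that removes MHC class II and CD86 from the surface, fell from means of 2.30 and 5.30 CPM to 0.279 and 0.729 CPM in WT and ACAT1 KO cells (-2.94, adjusted p = 1.78e-06, edgeR). Between genotypes 0 of 10 were called without stimulation by edgeR (3 had an unadjusted p under 0.05, DESeq2 called 1 and limma-voom 0), and after LPS Marchf1 (1.37, adjusted p = 0.0128) and H2-DMb1 (1.60, adjusted p = 0.0328) were higher and Marchf8 (-0.28, adjusted p = 0.0498) was lower in ACAT1 KO cells, 3 of 11 tested, beside 5.93% of all genes called higher and 9.12% lower. H2-DMb1 was under 1 CPM in every group, and its reads may be shared with its near copy H2-DMb2.

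Among other surface partners of T cells, 1 of 14 was higher and 1 lower in unstimulated ACAT1 KO cells, beside 0.742% and 1.17% of all genes. Havcr2, the receptor TIM-3, was lower in both states (-0.89, adjusted p = 0.0368, and -1.03, adjusted p = 0.00655), and Sirpa, the receptor of CD47, was higher without stimulation (0.45, adjusted p = 0.0455) and lies on distal chromosome 2. After LPS 4 of 16 were higher and 3 lower, beside 5.93% and 9.12% of all genes. Cd244a, a receptor of CD48, was lower (-1.62, adjusted p = 0.00492), as was the lipid-presenting molecule Cd1d1 (-0.66, adjusted p = 0.0101), and Pvr, a ligand of CD226 and TIGIT, was higher (0.40, adjusted p = 0.00654, all edgeR). With LPS 7 of 15 rose and 6 fell, beside 34% and 35.5% of all genes, Icam1, the ligand of LFA-1, by 4.53 (adjusted p = 2.13e-11) and Pvr by 2.22 (adjusted p = 1.16e-11, edgeR).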

How the data were processed

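RNA-seq of 12 libraries of J774A.1 cells was analysed, 3 each of WT and ACAT1 KO cells without stimulation and after LPS, grouped by the genotype and treatment in their labels. The members, gene lists and tests were chosen with earlier results of these data known. Reads had been trimmed with Trimmomatic 0.33, aligned to GRCm38 with HISAT2 and quantified with StringTie, per the submitters' processing notes, and the libraries were made with a strand-specific kit. The authors deposited raw whole-number counts, 1 table for each state. How these counts were made, and whether strand was used, is not given in the sources used here. The tables also hold the authors' log2 values per library, fold changes and p-values, which were not used (12 columns of values per library).

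The tables list 17544 genes without stimulation and 17874 after LPS, once 59 and 57 repeated entries were removed, each with at least 4 counts in at least 5 of 6 libraries. Identifiers of 17521 and 17849 genes matched the GENCODE annotation of GRCm38, whose merged exons gave the lengths. Counts were tested with edgeR 4.0.16 in R 4.3.3 (filterByExpr, TMM, quasi-likelihood test, two-sided, Benjamini-Hochberg adjusted p under 0.05 over all genes tested). Genotypes were compared within each state, over 16440 and 16483 genes. The LPS response and the interaction were fitted over 16535 genes in all 12 libraries, and that fit also gave the CPM printed. Exact permutation tests of 3 against 3 cannot go below p = 0.1. Replicates of a group differed by more than sampling noise. The fits were tested on simulated counts with known changes.

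Besides the members, the genes named are Acat1, genes within 500 kb of Cd28, the 5 genes most like it, and at most 4 called genes of each list and comparison with the smallest adjusted p, of which 1 is not reported here. Raph1 and the other neighbours follow from that window. Libraries of the same number were taken as 1 line across states, since their deviations from group means correlated from 0.139 to 0.454 in all 6 pairs over 11961 genes. The labels do not state this pairing. The alternatives were DESeq2 1.42.0, limma-voom (limma 3.58.1), upper-quartile and relative log expression scaling, no filter on low values, at least 10 counts in every library, a replicate or line block, all libraries in a single fit, a term for the 3 unstimulated libraries that stood apart by their counts on other-strand noncoding genes, and each library left out. Leaving out those 3 libraries, or using them alone, was added after the data were seen.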

Additional observations from a re-analysis of the deposited data

How the results depend on the processing

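Over all genes, the number with a genotype difference without stimulation depended most on the settings. It was 314 in edgeR, 1721 with DESeq2, 475 with at least 10 counts in every library, 151 with the replicate block, 664 with a term for the 3 unstimulated libraries that stood apart, 66 without those 3, 1353 with all 12 libraries in a single fit, and 7 (without WT replicate 2) to 522 (without WT replicate 3) when 1 library was left out. After LPS it was 2481, and 867 (without ACAT1 KO replicate 2) to 2245 when 1 library was left out. The number with an LPS response stayed within 11033 to 11372 when 1 library was left out. The interaction was called for 31 genes, 334 with DESeq2, 11 with limma-voom, 288 with the line block, 69 with that term, 2 without those 3 libraries and 2 to 41 when 1 library was left out. Of the interaction calls 25.8% were higher, against 43.5% with upper-quartile normalization and 41.9% with DESeq2.

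Among the 6 genes tested between genotypes, the 1 call without stimulation, Cd83, became 0 with the replicate block (-1.42, adjusted p = 0.0590) and without the 3 libraries. After LPS the 1 call became 2 with DESeq2, limma-voom, upper-quartile normalization and the single fit, each adding Cd40 (adjusted p = 0.00389, 0.0494, 0.0443 and 0.0497), and 2 with the replicate block, which added Cd80. Between genotypes the numbers pair nothing that the labels state, with correlations of -0.412 to 0.745. For the interaction the 0 calls became 1, Cd83, with DESeq2, the line block, that term (1.29, adjusted p = 0.0347) and without ACAT1 KO unstimulated replicate 1. Signs reversed for Cd80 without stimulation (-0.27 to 0.092 when 1 library was left out, namely 0.092 without WT replicate 2, 0.021 without ACAT1 KO replicate 1 and 0.076 without the 3 libraries), Icosl after LPS (0.022 with upper-quartile normalization, -0.038 to 0.058 when 1 library was left out, positive without WT replicate 1 or 2 or ACAT1 KO replicate 3), and the interaction of Cd40 (-0.010 to 0.30 when 1 library was left out, negative without WT LPS replicate 1). None of these values was past the threshold. The LPS responses of Cd28, Cd86, Cd40, Cd274, Icosl and Cd83 kept their direction and call under all 21 alternatives. Why the other calls changed was not tested. The genes under 1 CPM rest on the fewest counts.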
